A study of Mus musculus with 2 samples.

Results

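The immunoglobulin gene segments were examined in mouse regulatory T cells, a CD4 T cell type defined by the transcription factor Foxp3, through maps of accessible chromatin. The members were all genes that GENCODE release M21 annotates on mm10 as immunoglobulin V, D, J or C segments, 264 of 55413 annotated genes on chromosomes 1 to 19, X and Y. They comprised 218 V, 19 D, 14 J and 13 C segments. The heavy chain locus Igh on chromosome 12 held 144 of them, the kappa locus Igk on chromosome 6 held 108, and the lambda locus Igl on chromosome 16 held 12. Membership came from the annotation alone and used no measured value. The single group was regulatory T cells described as primary cells of strain C57BL/6NJ, with no treatment, genotype or age given beyond a linked protocol for CD4 T cell differentiation that was not read, and the entry names of the lists give 72 hours. Its 2 ATAC-seq libraries, in which a transposase cuts and tags open DNA, are numbered as biological replicates and carry 1 donor identifier. It was not established that they came from different animals, and their differences may be technical only. No second condition was measured, so no test between groups was possible and the results are counts, shares and positions.

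Each immunoglobulin chain is assembled in developing B cells by V(D)J recombination, in which the RAG recombinase cuts at recombination signal sequences and joins V, D and J segments. A recombination signal is a conserved heptamer directly beside the coding end, a spacer and a nonamer. V segments carry it at their 3′ end, while their promoter, often with an octamer motif bound by Oct factors, lies at the other end. Intronic and 3′ enhancers, and boundary elements bound by CTCF, direct the process in B cells. T cells rearrange their receptor loci instead, although some D to J joining at Igh is known in thymocytes.

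The values behind the results are those of the authors' lists of accessible regions, 68832 regions in replicate 1 and 78178 in replicate 2 on the chromosomes used. Each region has a signal, whose scale is not given, and a −log10 q, with medians of 21.8 and 25.6 over the 2 lists. The number of reads behind the lists is unknown. A region within 1 kb of a start site, in both replicates, was present at 6 of 6 regulatory T cell markers and 8 of 8 pan T cell markers. The same held for 7 of 14 B cell markers, 4 of 6 plasma cell markers and 2 of 5 myeloid markers, beside 64.4% of 21911 protein-coding genes. Genes with no promoter region listed in either replicate included the B cell genes Cd79a, Ms4a1, Igll1 and Fcrla and the plasma cell genes Jchain and Mzb1, while Cd22 and Blk had one in replicate 2 alone. Pax5, Ebf1, Vpreb1, Vpreb3, Blnk, Cd79b and Spib were the B cell markers with a promoter region in both. Whether B cells contributed to the regions below was not tested beyond these counts.

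The sequences at the 3′ ends of V segments are shown first, because most accessible regions at Igh V segments centred there. Each line gives the last 20 bases of a segment and the 100 bases past it, read 5′ to 3′ along the gene from the RefSeq GRCm38 genome, the reference and not the sequence of these libraries. Capitals mark exact copies of the recombination heptamer CACAGTG and of ACCACA, the reverse complement of the RUNX motif TGTGGT. The Ighv14 family is given whole because its members fell on either side, a choice made after the values were seen: Ighv14-2 and Ighv14-3 had a region in both replicates, and Ighv14-1 and Ighv14-4 had none. Ighv1-47 and Ighv1-58 are added as the strongest V segments outside that family.
Ighv14-2 (chr12:113994369-113994488, minus strand): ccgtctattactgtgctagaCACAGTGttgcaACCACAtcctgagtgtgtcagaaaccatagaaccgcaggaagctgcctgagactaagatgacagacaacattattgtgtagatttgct
Ighv14-3 (chr12:114059745-114059864, minus strand): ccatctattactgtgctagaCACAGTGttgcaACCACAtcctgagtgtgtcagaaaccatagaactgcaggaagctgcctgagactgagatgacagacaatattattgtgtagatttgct
Ighv14-1 (chr12:113931853-113931972, minus strand): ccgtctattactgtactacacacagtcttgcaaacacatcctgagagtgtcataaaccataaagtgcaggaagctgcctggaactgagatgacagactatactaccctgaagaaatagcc
Ighv14-4 (chr12:114176338-114176457, minus strand): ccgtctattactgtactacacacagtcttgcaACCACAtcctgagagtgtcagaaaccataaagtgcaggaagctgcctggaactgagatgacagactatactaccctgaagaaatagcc
Ighv1-47 (chr12:114991008-114991127, minus strand): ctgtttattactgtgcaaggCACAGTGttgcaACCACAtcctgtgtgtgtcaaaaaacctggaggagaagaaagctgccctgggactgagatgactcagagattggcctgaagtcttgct
Ighv1-58 (chr12:115312066-115312185, minus strand): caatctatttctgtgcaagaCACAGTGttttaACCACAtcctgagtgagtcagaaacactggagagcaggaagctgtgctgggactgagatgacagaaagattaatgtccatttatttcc
Over these 120 bases Ighv14-2 and Ighv14-3 were identical at 116 positions, and Ighv14-1 and Ighv14-4 at 118. Between a member with a region and a member without, an alignment with gaps matched 98 to 102 positions. Both members without a region lacked an exact heptamer, whereas 67 of the 90 Igh V segments with no region carried one, so an exact heptamer did not separate the segments across the locus.

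Few immunoglobulin segments had accessible chromatin nearby. A region lay within 1 kb of the segment in 22 members in replicate 1, in 26 in replicate 2 and in 18 in both, which is 6.82% of 264. Another 4 had a region in replicate 1 alone, 8 in replicate 2 alone, and 234 had none. Among all other annotated genes the share with a region within 1 kb in both was 40.5%, but those genes have a median length of 3349 bp, against 469.5 bp for the segments. Other genes under 1 kb, with a median length of 340 bp, gave 10.4%. T cell receptor segments, with a median length of 501 bp, gave 25.2%, or 57 of 226. No region counted for more than 1 immunoglobulin segment, whereas receptor J segments lie close together, so that 1 region can count for several.

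The share differed between segment classes and loci. Of the V segments, 13 of 218 had a region in both replicates (5.96%), against 24 of 144 T cell receptor V segments (16.7%). Within the immunoglobulin V segments the count was 11 of 113 at Igh (9.73%), 2 of 102 at Igk (1.96%) and 0 of 3 at Igl. The Igh share was close to the 10.4% of other short genes and the Igk share below it. Pseudogenes split the same way, with 7 of 81 at Igh and 0 of 74 at Igk. Of the other classes, 1 of 19 D, 1 of 14 J and 3 of 13 C segments had a region in both, while T cell receptor segments gave 2 of 4 D, 29 of 70 J and 2 of 8 C. All 12 Igl segments had no region in either replicate, nor had the 4 lambda V genes that the annotation lists under another type and that are not members.

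**Figure D1:**
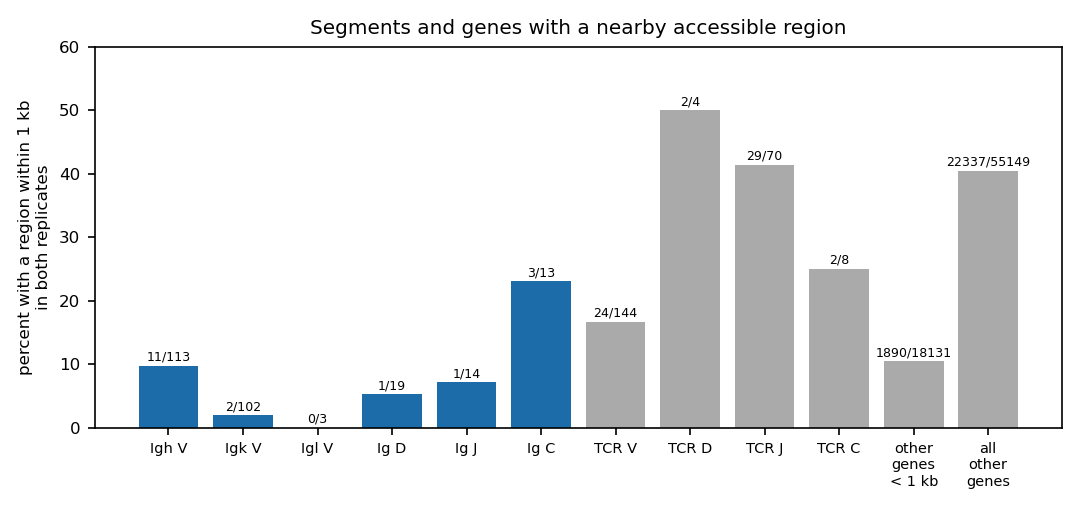
Share of segments or genes with an accessible region within 1 kb in both replicates (vertical axis, percent), with the counts above each bar. Blue bars are immunoglobulin classes and grey bars are T cell receptor classes, other genes under 1 kb and all other annotated genes. Igh V segments stand at 9.73%, Igk V segments at 1.96% and all other genes at 40.5%.

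The Igh V segments lie along 2.42 Mb, and this stretch held 29 replicated regions, meaning places where regions of both lists overlapped. That is 11.97 per Mb, against 24.0 per Mb over the genome, and the regions covered 0.753% and 0.863% of the stretch in replicates 1 and 2, against 1.93% and 2.22% of the genome. Replicated regions occurred in every 500 kb bin, with 6, 6, 8, 7 and 2 from the D-proximal to the distal end, the last bin being shorter. The regions of the stretch were weaker than most, with a median −log10 q of 10.9 in replicate 1 and 16.4 in replicate 2, at percentiles 31.1 and 38.6 of their lists. Of the 29 replicated regions, 11 had their summit within 1 kb of a V segment and 7 within 1 kb of a V pseudogene only. Windows of 1 kb around V segments make up 11.4% of the stretch. Summits over 10 kb from any V segment, pseudogenes not counted, numbered 7 of the 29.

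**Figure D2:**
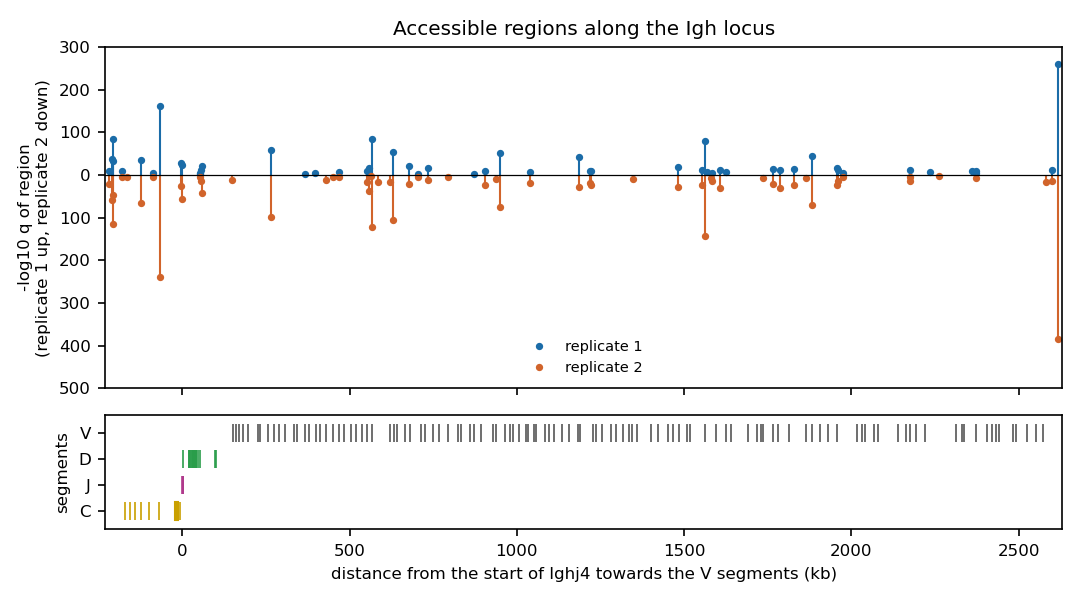
Accessible regions along Igh, by distance from Ighj4 (kb), with the −log10 q of each region drawn upwards for replicate 1 and downwards for replicate 2, and V, D, J and C segments below. Regions are scattered across the V segments, and the tallest line at the far end is the Zfp386 promoter, with a −log10 q of 259 in replicate 1 and 385 in replicate 2.

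The strongest region at an Igh V segment, by its mean percentile of −log10 q, was that of Ighv1-47, with a −log10 q of 80.7 in replicate 1 and 144 in replicate 2 and a signal of 15.2 and 17.7. Ighv14-2 followed with a −log10 q of 83.2 and 121, and its signal of 17.2 and 16.9 stood at percentiles 99.0 and 98.8 of the lists. Ighv14-3 had 54.8 and 105. These 3 segments were therefore strong in both libraries, unlike most of the V stretch. Ighv1-58 had a −log10 q of 45.5 in replicate 1 and 71.2 in replicate 2. Ighv1-12 was the member whose value was higher in replicate 1, at 42.2, than in replicate 2, at 28.3, among the V segments with a −log10 q over 20 in both. The other Igh V segments with a region in both were weaker, among them Ighv1-62-1 with 16.5 and 24.6, Ighv1-54 with 14.5 and 19.9, Ighv11-1 with 10.1 and 16.4, and Ighv1-67 with 11.8 and 13.9. Ighv1-74 had 10.1 and 6.51, at percentiles 28.9 and 16.8 of the lists, and Ighv7-1 had 6.07 and 5.86, at percentiles 17.0 and 14.8.

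By family, Ighv1 supplied 7 of the 11 from its 53 segments, Ighv14 supplied 2 of 4, and Ighv7 and Ighv11 supplied 1 each, of 4 and 2 segments. The Ighv5, Ighv2 and Ighv8 families, with 10, 9 and 9 segments, had regions in a single replicate only, and Ighv3 and Ighv6, with 6 and 5 segments, had none. Regions of a single replicate were weaker at the median. Over the whole Igh locus they had a −log10 q of 3.95 (replicate 1) and 7.52 (replicate 2) at the median, and replicated regions had 14.5 and 23.6. Among the 12 V segments with a region in 1 library alone, the −log10 q ran from 1.53 to 6.82 in the 4 of replicate 1 and from 4.62 to 15.6 in the 8 of replicate 2. The highest, Ighv11-2 with 15.6, was above the values of Ighv7-1 and Ighv1-74, which had a region in both.

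Regions at Igh V segments centred on the 3′ end, where the recombination signal lies, and not on the promoter. In 10 of the 11 segments with a region in both replicates, the mean summit of the replicates lay between 50 bp before and 150 bp past the 3′ end, and in 9 it lay 0 to 150 bp past the end. The median over the 11 was 33 bp past the end. At Ighv14-3 the summits were 82 and 81 bp past the end, at Ighv11-1 they were 95 bp in both replicates, and at Ighv1-54 they were 53 and 52 bp, so at these segments the position repeated to within 1 bp. At Ighv1-47 the summit was 13 bp past the end in replicate 1 and 5 bp before it in replicate 2. Ighv1-67 was the exception, with summits upstream of its start, at −839 bp in replicate 1 and −758 bp in replicate 2 relative to it, and a further weak region of replicate 2 alone lay 59 bp past its 3′ end.

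Segments outside that count were also examined. Of the 12 Igh V segments with a region in a single replicate, 8 had the summit 0 to 150 bp past the end, with a median of 35 bp. Of the 7 Igh V pseudogenes with a region in both, 4 did, and 6 lay between 50 bp before and 150 bp past the end. Of the 4 pseudogenes with a region in a single replicate, 1 had its summit 0 to 150 bp past the end and 3 lay in the wider range, with a median of −35 bp. T cell receptor V segments differed: 1 of the 24 with a region in both had its mean summit 0 to 150 bp past the 3′ end, and their median summit lay before the end, at −685 bp relative to it. Other genes under 1 kb gave 99 of 1890, or 5.24%. These counts were made after the position was noticed and carry no test.

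**Figure D3:**
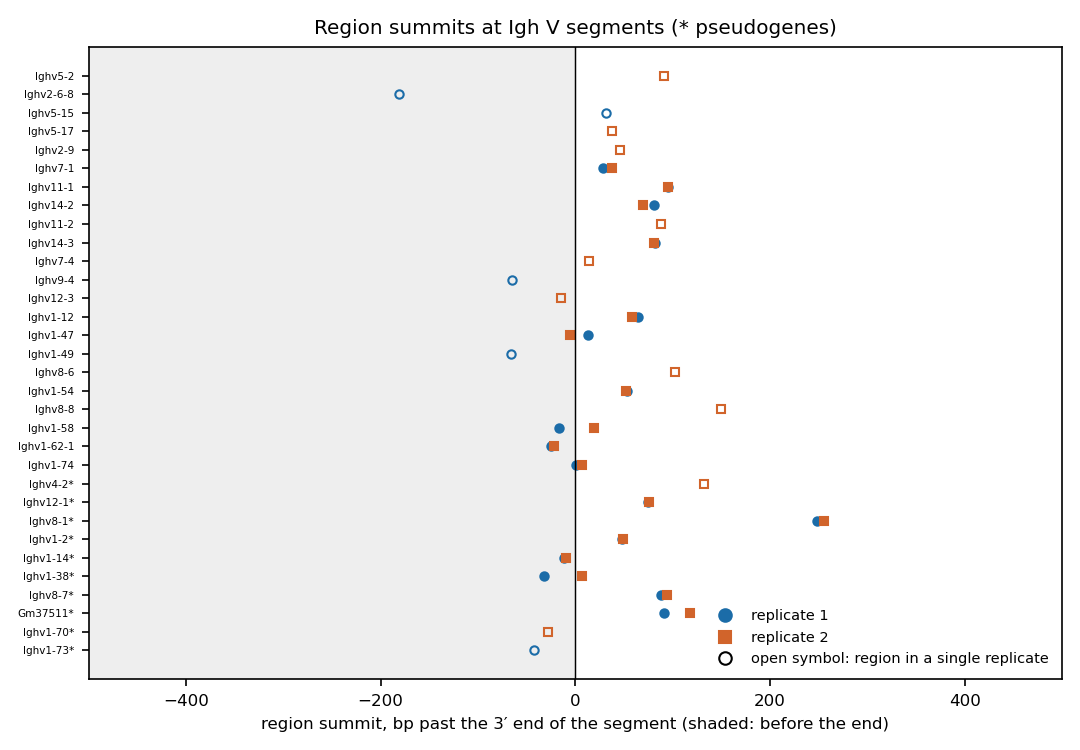
Region summits at Igh V segments and pseudogenes (marked *) by distance from the segment's 3′ end (bp, positive past the end), with circles for replicate 1, squares for replicate 2 and open symbols where a single replicate had a region. Most symbols fall just past 0, and 1 of 23 segments and 1 of 11 pseudogenes, with a summit over 500 bp away, are not drawn.

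Letters of the RUNX motif and of the recombination heptamer were frequent in the Igh V regions. Windows of 300 bp around the summits were searched on both strands. RUNX letters TGTGGT stood in 26 of 37 windows in replicate 1 (70.3%) and in 28 of 42 in replicate 2 (66.7%), against 26.0% and 26.5% of the windows of all regions. The heptamer CACAGTG stood in 51.4% and 52.4%, against 9.76% and 9.98% of all regions. No window held the octamer ATGCAAAT, found in 1.82% and 1.81% of all regions. At so low a share its absence from 37 and 42 windows says little. Summits at V segments also lay mostly at the 3′ end, away from the promoter. The CTCF core, searched as CNAGGGGGC, CNAGGTGGC and CNAGATGGC, stood in 0 of 37 and 1 of 42, against 8.22% and 7.97%. These forms are exact strings that miss other variants of the motif, so a window without a match may still hold a CTCF site. AP-1 letters TGANTCA stood in 16.2% and 14.3%, against 21.2% and 22.4%. E-box letters CAGCTG stood in 8.11% and 4.76%, against 18.1% of all regions in each list, and CAGGTG in 16.2% and 19.05%, against 21.4% and 21.2%. NF-kB letters GGGACTTTC stood in none, against 0.988% and 0.968% of all regions, which again says little at so low a share. The median GC content of the windows was 42.7% and 42.2%, against 49.0% and 48.7%.

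The RUNX letters belong in part to the shared sequence of V segment ends, as the printed Ighv14 and Ighv1 lines show, and segments without a region carry them too. They lay at the 3′ end of 9 of the 11 Igh V segments with a region in both (81.8%), of 14 of the 23 with a region in any replicate (60.9%) and of 44 of the 90 with none (48.9%). Within Ighv1 the counts were 7 of 7 with a region in both and 32 of 45 with none (71.1%). The heptamer was present in 9 of the 11 with a region in both and in 67 of the 90 with none (74.4%). Octamer letters stood in the promoter window, 250 bp before to 50 bp after the start, of 91 of 113 Igh V segments (80.5%), 74 of 102 Igk V segments (72.5%) and 3 of 3 Igl V segments, against 1.57% of protein-coding genes. The octamer promoters of V segments were thus present in the sequence at segments with and without a region: all 11 Igh segments with a region in both and 70 of the 90 with none.

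At Igk the V segments lie along 3.15 Mb, and that stretch held 2 replicated regions, or 0.635 per Mb, against 24.0 per Mb over the genome. Regions covered 0.0438% of it in replicate 1 and 0.0357% in replicate 2, and none was found in a single replicate. Both lay at members of the Igkv2 family, which has 3 members, and both were at the promoter side. The 300 bp window of each, at the summit of replicate 2, held the octamer letters. At Igkv2-137, the most distal V segment, the summit was 170 bp past the start in replicate 1 and 164 bp past it in replicate 2, in a coding exon that also lies within the lincRNA Gm42889, with a −log10 q of 18.4 and 44.4. At Igkv2-109 the summit was 63 bp before the start in both replicates, with a −log10 q of 5.33 and 8.57. From Igkv2-109 to the gap before the J segments, a run of 2407 kb (chr6:68302695-70709308) had no region in either list. It held 82 of the 108 Igk segments and no protein-coding gene, and ranked 102 by length among region-free runs in the genome. The longest such runs in the other loci were 208 kb with 9 segments at Igh, ranked 1376, and 757 kb with all 12 segments and 9 protein-coding genes at Igl, ranked 482.

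**Figure D4:**
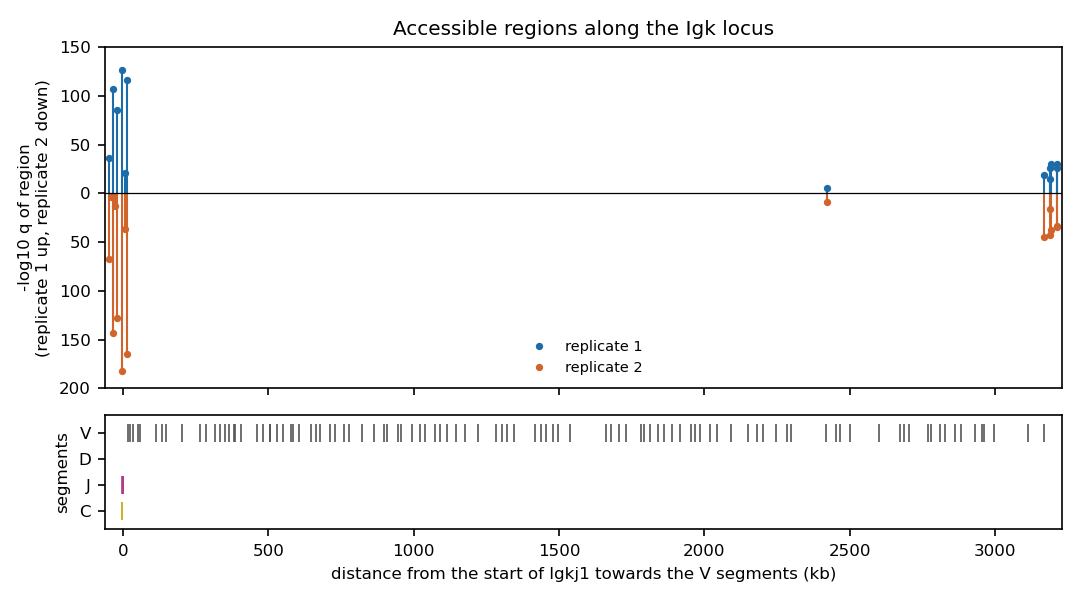
Accessible regions along Igk, by distance from Igkj1 (kb), with the −log10 q of each region drawn upwards for replicate 1 and downwards for replicate 2, and the segments below. Regions cluster at the J and C end and beyond the most distal V segments, with a run of 2407 kb without a region between.

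Sequence that occurs more than once in the genome was common in all 3 loci, which matters because the deposited text speaks of a signal of unique reads. Of 32-base words, 59.99% in the Igh V stretch, 57.5% in the Igk V stretch and 64.9% in the Igl V stretch occurred once in the genome, against 81.0% of words sampled over the genome. Within 1 kb of V segments the median was 76.9% for the 11 Igh segments with a region in both and 65.8% for the 90 with none. At Igk it was 69.8% for the 2 with a region and 62.2% for the 100 with none. The Igh and Igk stretches, which differ in their regions, were close in this measure. The part of repeated sequence in the results was not tested.

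The introns between the J and C segments of Igk and Igh, where enhancers known from B cells lie, were accessible in both replicates. The Igh C segments as a stretch were not dense in regions, with 17.9 replicated regions per Mb, against 24.0 per Mb over the genome. In the intron between Igkj5 and Igkc, which holds the intronic kappa enhancer in B cells, 1 region covered 38.0% of the intron in replicate 1 and 42.6% in replicate 2. Its −log10 q was 126 and 182, at percentiles 88.0 and 89.2, and its signal was 14.6 and 13.9. The summit lay at the same base in both lists, 584 bp before Igkc, the constant segment of the kappa chain. No Igk J segment had a region within 1 kb, and their nearest summit was this one, 1.92 to 3.25 kb away.

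The 2 replicated regions in the gap between the Igk V and J segments, a stretch that in B cell precursors holds the CTCF-bound elements Cer and Sis, had a −log10 q of 116 and 165 and of 20.7 and 36.9. The nearer one lay 8104 bp from Igkj1, and the stronger one 5323 bp from Igkv3-1. Neither had a match to the CTCF core forms searched in its 300 bp window at the summit of replicate 2. The window of the stronger one holds gccatctgc, which differs from the form CNAGATGGC, read on its other strand, only in the last base. The lack of an exact match therefore does not show that CTCF sites are absent. The first summit past Igkc lay 17058 bp away, and no region lay in the stretch before it, in which the 3′ kappa enhancer of B cells is known to lie. The 3 replicated regions of this flank had a −log10 q of 85.4 and 128, of 106 and 143 and of 36.0 and 67.4, at 17058, 29342 and 41950 bp past Igkc. The last lay within the gene Rpia, which encodes an enzyme of the pentose phosphate pathway, 23316 bp from the annotated gene start. That start lies beyond the 50 kb flank, and regions there are not reported here.

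**Figure D5:**
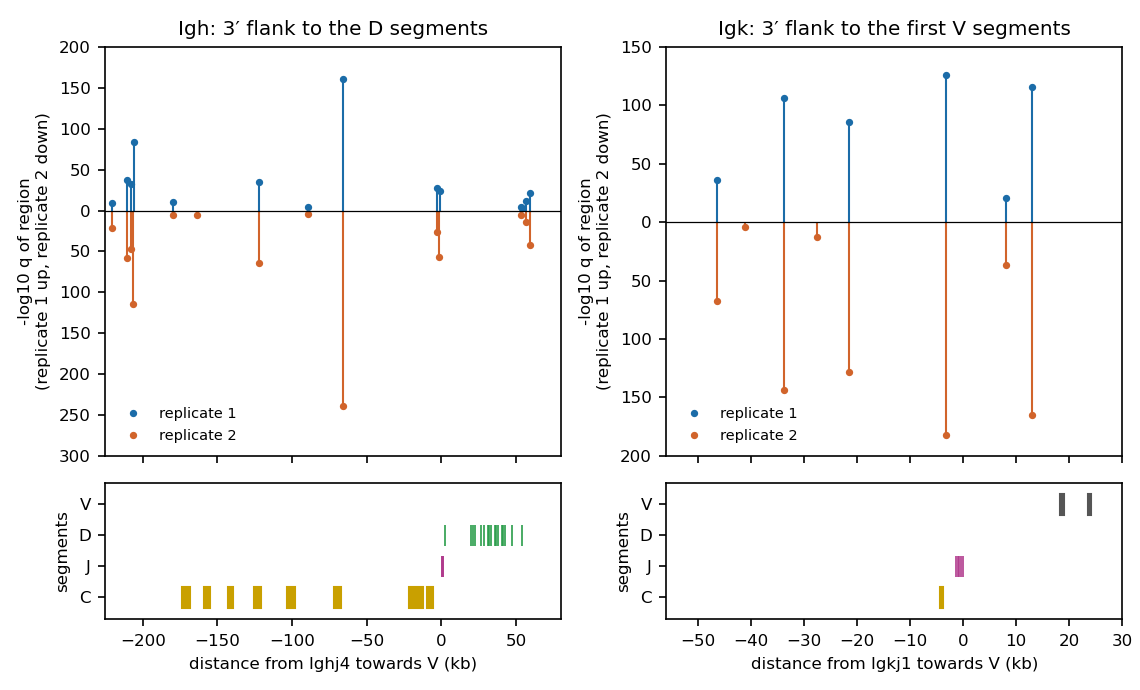
Accessible regions at the C, J and D ends, by distance (kb) from Ighj4 on the left and from Igkj1 on the right, with −log10 q upwards for replicate 1 and downwards for replicate 2. The tallest line at Igh, 161 and 240, is upstream of Ighg3, and the tallest at Igk, 126 and 182, is the intron before Igkc.

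In the heavy chain locus, the intron between Ighm and Ighj4, site of the Eµ enhancer of B cells, was the stretch most fully covered, at 55.5% in replicate 1 and 57.7% in replicate 2. It held 2 replicated regions. The one nearer Ighm, the constant segment of IgM, had a −log10 q of 28.0 and 26.2. The one nearer Ighj4 had 23.6 and 56.8, and its edge came within 1 kb of that J segment although its summits lay 1085 and 1678 bp past the J segment's start. These regions were broad and of moderate strength, with −log10 q percentiles of 50.4 to 68.7. Ighj1, Ighj2 and Ighj3 had no region within 1 kb.

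Among the 8 heavy chain constant segments, Ighg3 and Ighg2b had a region in both replicates. The region upstream of Ighg3 was the strongest at any member, with a −log10 q of 161 in replicate 1 and 240 in replicate 2, a signal of 16.0 and 16.4, and its summit at the same base in both, 1343 bp upstream of the annotated gene. At Ighg2b the region lay in an intron of the annotated gene, with summits 1760 and 1794 bp past its start, a −log10 q of 34.7 and 64.7 and a signal of 11.0 and 13.6. Both segments encode IgG subclasses. In B cells, germline transcripts from a promoter upstream of the target constant segment precede class switching to it. Whether these regions are such promoters was not tested. Igha, Ighe, Ighg2c, Ighg1, Ighd and Ighm had no region within 1 kb, and their nearest replicated summits were 2.85 to 20.4 kb away. A weak replicated region with a −log10 q of 4.63 and 4.62 lay 8904 bp from Ighg1.

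The sequences around the summits are shown for the 3 C segments with a region in both replicates. Each is 300 bases around the summit of replicate 2, read along the gene from the RefSeq GRCm38 genome. Capitals mark exact matches to the motifs searched. They are NF-kB letters GGGACTTTC (GAAAGTCCC on the other strand), the CTCF core form CNAGATGGC (printed here from its other strand), the E-boxes CAGCTG and CAGGTG, the RUNX letters TGTGGT and AP-1 letters TGANTCA.
upstream of Ighg3 (chr12:113362425-113362724, minus strand): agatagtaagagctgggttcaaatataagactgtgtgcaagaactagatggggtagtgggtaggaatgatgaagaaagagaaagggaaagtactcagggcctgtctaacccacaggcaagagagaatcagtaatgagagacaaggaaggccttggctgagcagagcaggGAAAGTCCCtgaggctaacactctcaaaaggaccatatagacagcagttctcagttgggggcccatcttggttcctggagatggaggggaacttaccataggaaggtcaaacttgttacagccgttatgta
inside Ighg2b (chr12:113305989-113306288, minus strand): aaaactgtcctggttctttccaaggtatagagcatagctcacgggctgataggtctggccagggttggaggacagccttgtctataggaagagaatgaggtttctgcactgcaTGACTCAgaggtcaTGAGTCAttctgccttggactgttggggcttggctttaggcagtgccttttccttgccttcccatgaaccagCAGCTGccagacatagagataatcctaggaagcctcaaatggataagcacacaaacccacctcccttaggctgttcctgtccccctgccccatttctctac
J to C intron of Igk (chr6:70725701-70726000, plus strand): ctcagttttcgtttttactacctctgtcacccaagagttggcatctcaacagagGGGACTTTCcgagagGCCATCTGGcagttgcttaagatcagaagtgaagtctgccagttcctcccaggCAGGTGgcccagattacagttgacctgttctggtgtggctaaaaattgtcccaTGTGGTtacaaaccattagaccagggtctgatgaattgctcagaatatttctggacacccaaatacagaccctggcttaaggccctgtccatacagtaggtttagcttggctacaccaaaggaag
The window upstream of Ighg3 held 1 NF-kB match, from base 170. The window in the Igk intron held 1 from base 55, a CTCF core match from base 70, a CAGGTG E-box from base 123 and a RUNX match from base 176. The window inside Ighg2b held AP-1 matches from bases 114 and 128 and a CAGCTG E-box from base 200. NF-kB letters stood in 0.988% and 0.968% of the windows of all regions and in 1 window of each of Igh outside the V segments and Igk. E-boxes with letters other than CAGCTG and CAGGTG were not searched and are not marked, also where they overlap a stretch marked for another motif. A match is a stretch of letters and not evidence of binding.

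The D segments were largely without accessible regions. Ighd1-1, also known as DFL16.1, had a weak region with a −log10 q of 4.63 in replicate 1 and 5.86 in replicate 2, with summits 350 and 355 bp from the segment's start on its 3′ side. Replicate 1 alone had another, with a −log10 q of 2.67, at 481 bp on the other side. The other 18 D segments had none, and the median distance from a D segment to the nearest replicated summit was 20.5 kb. Much of the sequence around D segments is repeated: within 1 kb, 91.9% of 32-base words occurred once in the genome at Ighd1-1, against a median of 37.0% (14.3% to 100%) at the 18 with no region. Its part in the absence of regions there was not tested. Upstream of Ighd1-1, where the CTCF-bound control region IGCR1 lies in B cell precursors, 2 replicated regions stood 3136 and 5734 bp away. Their −log10 q was 11.2 and 14.3 for the nearer and 21.5 and 42.0 for the farther. The CTCF core forms searched had no match in the 300 bp window of either, at the summit of replicate 2. Those forms are exact strings, so this does not show that CTCF sites are absent. The count for D segments fell to 0 when only regions with a −log10 q of 5 or more were kept.

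The flanks held genes of other kinds. Past Igha, where the 3′ regulatory region of B cells lies, 5 replicated regions fell within 50 kb, the strongest with a −log10 q of 84.4 and 115 at 32443 bp from Igha. At the distal end of Igh the zinc finger gene Zfp386 had a promoter region with a −log10 q of 259 and 385. Adam6a and Adam6b, protein-coding genes located between the D and V segments, had no promoter region in either list. The flank beyond the distal Igk V segments held 5 replicated regions. Over whole loci with 50 kb flanks, replicated regions numbered 44 at Igh (15.5 per Mb), 13 at Igk (3.97 per Mb) and 0 at Igl, against 24.0 per Mb over the genome. The olfactory receptor gene Olfr164, whose start lies in the Igl flank, had no promoter region either.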

How the data were processed

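ATAC-seq was measured in 2 libraries of regulatory T cells, grouped and numbered from the labels. The deposited lists, in narrowPeak form on mm10, were made from each library's own alignments, per the deposited text files. They give, as deposited, a signal and −log10 p and −log10 q values for each region. Not given in the sources used here are the scale of the signal, the software for alignment and region calling, and any shift for the transposase. ASTARR and insert occur in the entry names with no explanation, which leaves unclear if another assay's inserts were sequenced, and this bears on every region. Depth is unknown from these lists, and no interval that needs it is given.

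From these lists, a segment counted where a region overlapped it or 1 kb to either side by at least 1 bp, in each list separately. Regions of both lists that overlapped by at least 1 bp formed a replicated region. Loci ran from first to last segment plus 50 kb. Percentiles are ranks within a list. Summit positions used the region with the highest −log10 q within 1 kb. The same counts over other genes served as background. No test was run, since there was 1 group. Word uniqueness took every 32-base word on both strands, and every 1000th position over the genome. Annotation was GENCODE M21 and sequence RefSeq GRCm38, the mm10 build. Python 3.11.15, pandas 2.3.3, numpy 2.4.6, samtools 1.23.1 and Biopython 1.88 were used.

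The members, marker lists, motifs and named genes were chosen with earlier results of these data known. Named were all C segments, the D and J clusters, the V segments with a region in both lists, the 5 strongest replicated regions of each locus, and other protein-coding genes with a start in a locus. Segments with a region in a single replicate, the Ighv14 members with none and pseudogenes were named after their values were seen. Some genes that these rules take are not reported here. Alternatives changed the window, the flank, the overlap, the threshold, the list length and the library. The counting was checked on simulated data.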

Additional observations from a re-analysis of the deposited data

How the results depend on the processing

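Of 64 alternative counts, 52 stayed within 1.5 times the value reported and 12 did not. The count of all segments with a region in both replicates, reported as 18, ranged from 13 to 26. The V segment count was 13 and became 17 to 21 when a single library was used. It fell to 9 with the 50000 regions highest by −log10 q and to 10 with the 50000 highest by signal. The D segment count of 1 became 0 with a −log10 q of 5 or more, 0 with the 50000 regions highest by −log10 q and 0 with the 50000 highest by signal. The J segment count of 1 became 0 with windows of 500 bp, 5 with windows of 2 kb, 0 with the summit required inside the window and 0 with the 50000 regions highest by signal. Replicated regions at Igh fell to 27, against 44 as reported, with the 50000 regions highest by −log10 q. At Igk they numbered 5 without flanks and 23 with flanks of 100 kb, against 13, and at Igl 1 with flanks of 100 kb, against 0. The cause was not tested. No paired analysis was possible because there was 1 group. What depth limits cannot be stated, since depth is unknown. Many locus regions share a value, with 47 distinct −log10 q among 66 entries of replicate 1 and 55 among 75 of replicate 2.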
